A study of Mus musculus with 47 samples.

Results

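The mitochondrial ribosomal protein genes were read here as the symbols that begin with Mrpl or Mrps and a digit and whose raw tags in a tissue's table added up to 20 or more. The pattern matched 76 of the 26608 symbols in each of the 4 tables, and 75 of them were members in every table. The remaining symbol, Mrps36, had 0 counts in all 4 tables. By name and known structure 49 members belong to the large subunit and 26 to the small subunit; Mrps18a and Mrps30 are counted with the large subunit, where their proteins sit despite their symbols. The members nearest the minimum were Mrps21, with a total of 36 tags in inguinal white fat and 52 in liver, and Mrps27, with 63 in inguinal fat.

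The libraries came from 12 male C57BL/6J mice, put at 5 weeks of age on a control diet (6 mice) or a methionine-restricted diet (6 mice) for 11 weeks, at a room temperature of 23 °C; food was withheld for the last 5 h. No genotype differed and both groups ate freely, per the labels. From each mouse RNA of the interscapular brown adipose tissue (BAT), the inguinal white adipose tissue (IWAT), the liver and the gastrocnemius muscle was turned into 3′ tag libraries (SAGE, in which each transcript is counted by a short sequence next to a restriction site near its 3′ end), giving 47 libraries: 6 per diet and tissue, but 5 restricted ones for the muscle. The series asks how restriction of this essential amino acid changes transcription in each tissue.

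The mitochondrial ribosome translates the few messages of mitochondrial DNA, which in mammals all encode subunits of the respiratory chain and the ATP synthase. Its RNAs are transcribed inside the organelle, while its proteins are encoded in the nucleus, made in the cytosol and imported, so RNA and protein of the machine come from separate genomes. Brown fat is packed with mitochondria that it uses to make heat, and white fat has few, except where brown-like (beige) adipocytes appear in it.

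Levels are given in CPM, the tags of a gene scaled to the total of its library. The totals ran from 5252688 to 13117537 tags in BAT, from 4887004 to 7094761 in IWAT, from 7710740 to 12130444 in liver and from 7756320 to 12829112 in muscle. A count of 3 tags, the limit that a count of 0 allows, was between 0.229 and 0.614 CPM, which covers counting error alone. By their median rank correlation with the other libraries of their tissue (under 0.8), 4 libraries stood apart. Named by diet (CON control, MR restricted) and animal, these were the IWAT libraries of CON3106 (0.628), of CON3115 (0.719) and of MR3116 (0.647), and the muscle library of MR3101 (0.582). The main counts and medians of the IWAT and muscle results are given with and without them. All 5 brown adipocyte markers had tags in every BAT library, all 5 hepatocyte markers in every liver library and all 5 skeletal muscle markers in every muscle library. Markers of other tissues were present too: the muscle markers summed to between 88.9 and 15708 CPM in the BAT controls, and the hepatocyte markers to as much as 3569 CPM in the BAT controls, 11052 in the IWAT controls and 7877 in restricted IWAT. Their part in the results was not tested.

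A SAGE count rests on the tag, so the tags of the members on which the results turn are shown. The predicted tag is the NlaIII site (CATG, in capitals) nearest the 3′ end of the longest annotated transcript, with the 23 bases after it. A tag was predicted for 75 of 75 members, in the 3′ UTR for 55, in the coding sequence for 19 and across the end of the coding sequence for 1. Other transcripts of some members gave other tags, among them Mrpl15 and Mrpl33 with 2 distinct tags each. The tag that was counted thus need not be the one shown. The 2 annotated transcripts of Mrps36, the symbol at 0, hold 0 such sites. The first 4 tags belong to genes highest in BAT, the next 2 to the genes highest in liver and in muscle, and the last 2 to the genes with the smallest p in IWAT under restriction.
Mrps2: CATGcttaggggagatgtcacaagtat
Mrpl34: CATGctgaagggccgcaagtccctgag
Mrps27: CATGgtctgtccccttcccatcactgc
Mrpl39: CATGttcgaaataatgtgtttgcagat
Mrpl52: CATGatctcaaacctaaagggacttta
Mrpl33: CATGtacacactgagggcctatgtggc
Mrpl16: CATGagtgagtgacttctgaaaaactg
Mrpl15: CATGatagactttatattgtttttagc

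Of these, the tags of Mrpl34 (gene at chr8:71464926-71465753 in GRCm38.p6) and Mrpl52 (chr14:54426909-54429750) lie in the coding sequence and the other 6 in the 3′ UTR. Mrpl34 and Mrps16 have just 1 NlaIII site, so they can be counted at 1 place of the transcript. Each of the 8 tags occurs at 1 place in the NCBIM37 genome, as do 65 of the 75. Another 9 members have a predicted tag at more than 1 place, and their counts are uncertain where the mapping could split or drop such tags: Mrpl22, Mrpl23, Mrpl45, Mrps10, Mrps18b and Mrps21 at 2 places each, Mrpl27 at 5, Mrps18c at 10 and Mrpl43 at 43. The tags of Mrpl48, Mrpl53 and Mrps34 also occur in a transcript of another gene (D630004N19Rik, Ccdc142 and Nme3). A few of the multi-place tags are shown, those of the 3 members whose mean was lower in BAT than in each other tissue.
Mrpl22: CATGgccgaggtcgctttggcattatg
Mrpl23: CATGggcagaccttcactttcccagat
Mrps18c: CATGcaaaatttatatgcctcagtaca

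The promoters of the members were read for motifs of factors known to act on nuclear genes for mitochondria. In windows of 300 bases around the RefSeq start (GRCm38.p6), read on both strands, the letters CCGGAAG (the core bound by GABPA, also called NRF2) were found in 24 of 66 members with a window, 36.36%, against 9.928% of 27025 genes. CGCNTGCG, the core of the NRF1 site, was found in 19 (28.79% against 9.221%), and ATGGCGGC, a YY1 motif, in 12 (18.18% against 2.605%). TCAAGGTCA, an ESRRA motif, was in 0 of 66, against 0.4662% of genes. At least 1 of the 4 was present in 42 members (63.64% against 19.2%), and the windows of the members had a median GC content of 58.5% against 52.67%; its part in these shares was not tested. A match is a description and not a bound site. Of the 11 members called higher in BAT than in each other tissue, 7 had at least 1 motif. This share was close to that of all members. Among these 11, CCGGAAG was found in Mrpl3, Mrpl34 and Mrps27 alone, and Mrpl16, Mrpl36, Mrpl47 and Mrps2 had none of the motifs. The 120 bases before the start are given for 4 members, with the matches in capitals: Mrpl34 and Mrpl3, both highest in BAT, carry CCGGAAG 37 and 19 bases before the start, Mrpl52, the member highest in liver, carries it on the other strand, and Mrpl32 carries the NRF1 core at 2 places.
Mrpl34, chr8:71464806-71464925, plus strand: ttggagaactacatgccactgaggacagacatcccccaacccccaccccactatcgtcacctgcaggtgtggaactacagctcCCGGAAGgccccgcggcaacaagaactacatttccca
Mrpl3, chr9:105053148-105053267, plus strand: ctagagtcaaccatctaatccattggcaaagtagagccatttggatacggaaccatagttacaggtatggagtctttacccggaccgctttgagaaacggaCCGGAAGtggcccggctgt
Mrpl52, chr14:54426789-54426908, plus strand: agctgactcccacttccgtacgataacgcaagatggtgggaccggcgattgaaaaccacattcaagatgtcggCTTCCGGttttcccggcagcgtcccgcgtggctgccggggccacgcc
Mrpl32, chr13:14613038-14613157, minus strand: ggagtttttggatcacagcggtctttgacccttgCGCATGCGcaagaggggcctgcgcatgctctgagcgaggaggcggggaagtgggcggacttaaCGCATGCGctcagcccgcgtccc

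A pair of members, Mrpl46 of the large subunit and Mrps11 of the small one, starts head to head with 41 bases between the 2 starts.
Between Mrpl46 and Mrps11, chr7:78783090-78783130, plus strand: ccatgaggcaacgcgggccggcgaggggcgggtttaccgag
In the control libraries Mrpl46 had lowest, median and highest levels of 56.3, 67.5 and 81.3 CPM in BAT, 12.3, 47.2 and 65.1 in IWAT, 28.2, 39.0 and 50.5 in liver and 33.8, 49.1 and 53.9 in muscle. Mrps11 had 10.3, 10.8 and 18.7 CPM in BAT, 0.316, 9.68 and 12.7 in IWAT, 4.99, 5.81 and 6.11 in liver and 3.43, 8.33 and 13.1 in muscle. Both were highest in BAT and lowest in liver by their mean CPM.

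Across the members the level spanned more than 2 orders of magnitude within a tissue. The median member had 63.1 CPM in the BAT controls, 36.0 in IWAT, 27.8 in liver and 37.7 in muscle, and the lowest and highest members were at 0.939 and 576 CPM in BAT, 0.404 and 366 in IWAT, 0.407 and 320 in liver and 0.882 and 400 in muscle. Levels of different genes are compared here as tags, of which a transcript gives about 1, so length does not enter, but the tag itself does. The order of the members was much the same in every tissue: Spearman's rho between the control means of a pair of tissues, over the same 75 genes, ran from 0.9201 (liver and muscle) to 0.9499 (BAT and liver). The 10 highest members held 42.7% of the summed level in BAT, 44.8% in IWAT, 47.3% in liver and 48.2% in muscle.

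Large-subunit members were the most abundant. In the BAT controls the 5 highest were Mrpl30 (576 CPM), Mrpl13 (487), Mrpl15 (415), Mrpl12 (313) and Mrpl2 (273), and Mrpl30 also led in IWAT (366) and muscle (400), while Mrpl52 led in liver (320). Mrpl13, Mrpl15, Mrpl18, Mrpl32, Mrpl33, Mrpl52 and Mrpl12 filled most other places among the highest 5 of a tissue. Mrpl2 is a core protein near the catalytic centre of the large subunit, and Mrpl12 forms the stalk that recruits translation factors. The lowest members were mostly of the small subunit: Mrps21 had a control mean of 0.939 CPM in BAT, Mrps27 2.39, Mrps26 3.60 and Mrps18b 3.69, and these 4 were among the 5 lowest in all 4 tissues, joined by Mrpl22 in BAT (3.38) and muscle (4.04), Mrpl55 in IWAT (2.64) and Mrps6 in liver (0.611). The median large-subunit member was at 68.0 CPM and the median small-subunit one at 43.0 in BAT, 42.6 and 19.1 in IWAT, 28.6 and 19.2 in liver, and 48.8 and 18.3 in muscle. The ratio of large- to small-subunit tags in a library had a median of 3.43 in BAT controls and 3.51 in restricted BAT, 3.53 and 3.45 in IWAT, 4.05 and 3.94 in liver and 4.02 and 4.35 in muscle, with the highest value, 6.07, in the muscle of MR3101. Leaving out the libraries that stood apart gave medians of 3.39 and 3.41 in IWAT and 4.02 and 4.24 in muscle.

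**Figure D1:**
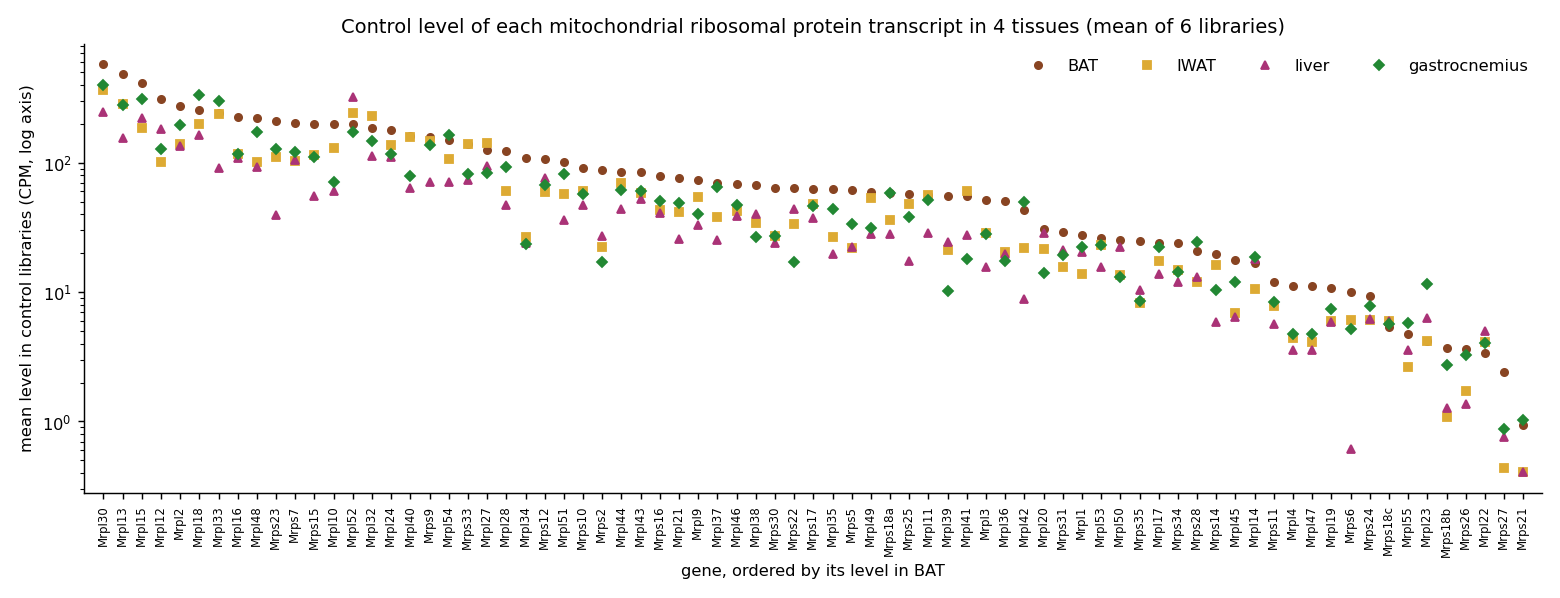
Mean control level (CPM, log axis) of each of the 75 members, ordered along the x axis by the level in BAT, with a marker for each tissue (mean of 6 libraries). The tissues follow each other over the whole range, the brown circles of BAT lie on top for 58 of 75 members, and Mrps6 in liver (0.611 CPM) falls far below its level in the other tissues.

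Some subunits have a place in the machine that makes their levels of interest. The paralogs of the bacterial S18 protein differ in level: in BAT controls Mrps18a, which sits in the large subunit, had a median of 55.6 CPM, Mrps18b 3.82 and Mrps18c 5.46, the latter 2 with multi-place tags. Mrps30, another large-subunit protein, was at 61.1 CPM (median of BAT controls), Mrps5, a small-subunit protein by the decoding region, at 63.2 and Mrpl44, which holds a ribonuclease III-like domain, at 82.8. In IWAT the control medians of the same genes were 38.4 (Mrps18a), 1.16 (Mrps18b), 7.08 (Mrps18c), 33.3 (Mrps30), 26.5 (Mrps5) and 52.7 CPM (Mrpl44).

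Summed over the members, BAT controls ranged from 6621 to 7980 CPM with a median of 7681, IWAT controls from 4168 to 5424 (5008), liver controls from 3362 to 3974 (3828) and muscle controls from 4789 to 5546 (5077). By library totals the lowest BAT control library was thus above the highest control of every other tissue, and the liver controls were all below those of the other tissues. With TMM scaling over all libraries (a trimmed mean of gene ratios sets the scale) the order changed: BAT controls had 5440 to 7767, muscle 5004 to 6248, liver 4620 to 5028 and IWAT 2860 to 4252, so BAT overlapped with muscle and IWAT was lowest. As a share of all tags the sum was between 0.662% and 0.798% in BAT controls and between 0.336% and 0.397% in liver controls. In bulk tissue, fewer cells of a type and less RNA per cell cannot be told apart.

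**Figure D2:**
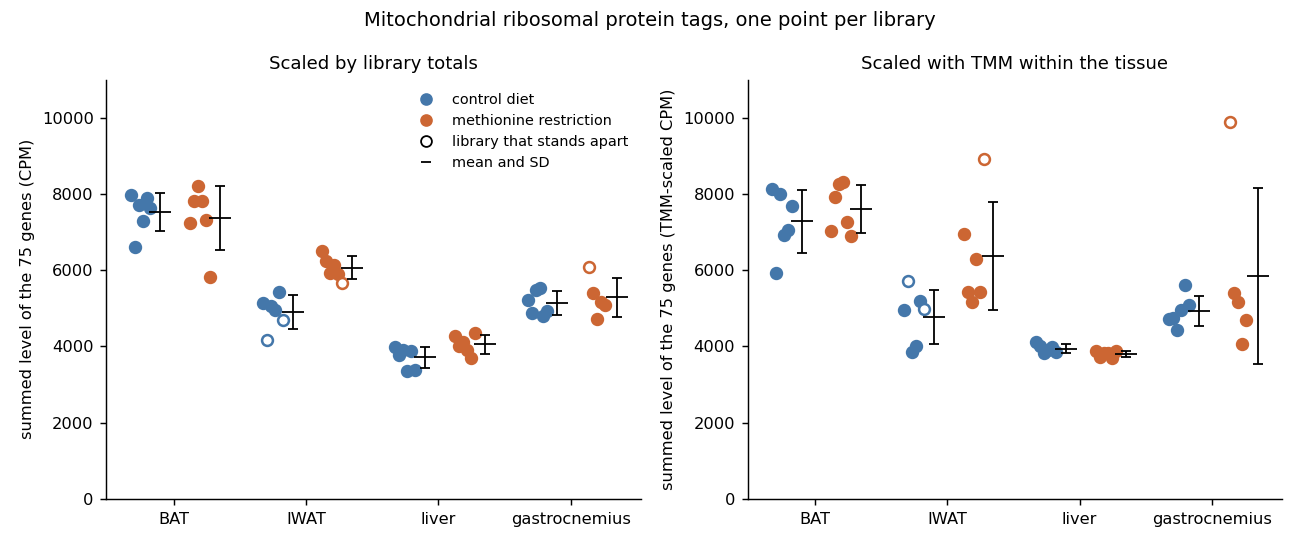
Summed level of the 75 members in each library (left, CPM by library totals; right, after trimmed-mean (TMM) scaling within the tissue), by tissue and diet, with the mean and SD beside each group; open circles are the 4 libraries that stood apart. BAT is highest on the left, by library totals, an order that changed with TMM scaling over all libraries, where BAT overlapped with muscle. The right panel is scaled within each tissue and does not compare tissues. The restricted IWAT libraries lie above all the control ones on the left but not on the right, where MR3116 and CON3106 are the highest of their groups.

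For differences between tissues each gene was tested in the 24 control libraries with edgeR's quasi-likelihood test and adjusted over 12854 genes. Of 74 members that passed the filter on low counts (all but Mrps21), 52 were higher in BAT than in IWAT (adjusted p under 0.05) and 0 were lower, where 18.7% of all genes were higher and 19.5% lower. Against liver 32 were higher in BAT and 3 lower (background 28.4% and 23.5%), and against muscle 17 higher and 2 lower (22.7% and 21.5%). The median log2 difference over the members was 1.14 for BAT against IWAT, 0.59 against liver and 0.31 against muscle, while the median over all genes was -0.02, 0.09 and 0.05. As a share of the members, the count higher than in liver was above the background and the count higher than in muscle was close to it. Both subunits took part in the difference from IWAT, with 33 of 49 large-subunit members (median 1.09) and 19 of 25 small-subunit ones (1.22) higher in BAT. So did the proteins with a listed bacterial counterpart (30 of 43) and those without a listed one (22 of 31). The latter list holds Mrps18a and Mrps18b, paralogs of the bacterial S18 protein. Without the 2 control IWAT libraries that stood apart, 51 of 75 were higher in BAT than in IWAT (background 20.1%; median 1.01) and 26 of 75 higher than in muscle (28.9%). P-values here rest on the spread between the libraries of a tissue, each from another mouse. The fit did not pair the tissues of a mouse, and counts from a fit with that pairing are given below.

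**Figure D3:**
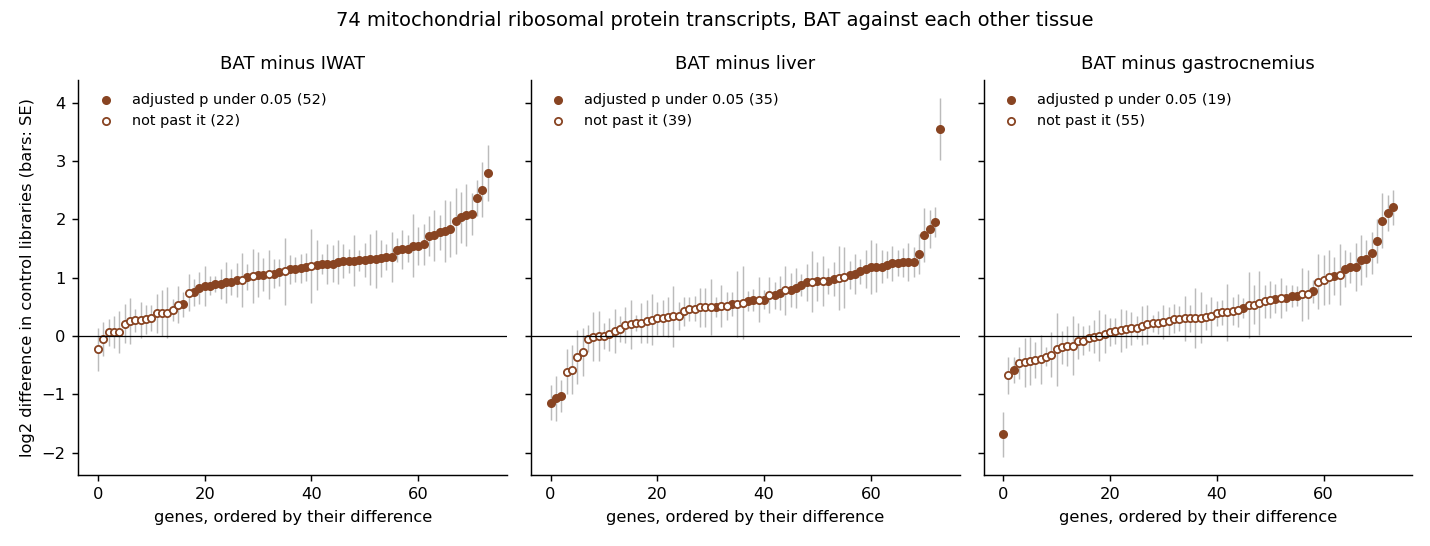
Log2 difference of each of 74 members between BAT and each other tissue in control libraries (y axis; bars are the SE), with genes ordered by their difference along the x axis; filled circles passed an adjusted p of 0.05. Nearly the whole curve lies above 0 against IWAT (72 of 74), 63 of 74 lie above 0 against liver and 56 of 74 against muscle.

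Called higher in BAT against each of the other 3 tissues were 11 of 74 members (14.9%), where 4.4% of all genes were: Mrpl3, Mrpl9, Mrpl10, Mrpl16, Mrpl34, Mrpl36, Mrpl39, Mrpl47, Mrps2, Mrps7 and Mrps27. Mrpl10 anchors the stalk proteins, Mrpl3 and Mrpl16 lie close to the catalytic centre, and Mrps27 is an RNA-binding protein found in mitochondrial ribosomes and not in bacterial ones.

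Mrps2, the counterpart of a bacterial small-subunit protein, had lowest, median and highest control levels of 71.0, 84.8 and 116 CPM in BAT, 6.47, 23.96 and 35.9 in IWAT, 20.3, 26.9 and 34.7 in liver and 9.04, 17.0 and 30.8 in muscle. The BAT range did not overlap with any other, and the ranges of the other 3 tissues overlapped. By edgeR its log2 difference was 2.36 ± 0.31 (SE) against IWAT (adjusted p = 8.59e-06), 1.25 ± 0.30 against liver (0.00115) and 2.11 ± 0.31 against muscle (6.02e-06). Without the libraries that stood apart its difference from IWAT was 2.06.

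Mrpl34, a small basic protein of the large subunit, had 85.3, 97.6 and 153 CPM in BAT, 1.42, 36.5 and 42.0 in IWAT, 18.1, 24.8 and 26.4 in liver and 16.9, 21.7 and 31.8 in muscle. Again the lowest BAT library was above the highest of each other tissue. The difference was 2.51 ± 0.47 against IWAT (edgeR, adjusted p = 0.000312), 1.73 ± 0.46 against liver (0.00287) and 1.98 ± 0.46 against muscle (0.00124). In the IWAT controls that stood apart Mrpl34 was at 1.42 and 2.26 CPM, and without them the difference from IWAT was 1.98.

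Mrps27 was a low member, with 1.71, 2.17 and 3.67 CPM in BAT against 0, 0.451 and 0.941 in IWAT, 0.412, 0.682 and 1.17 in liver and 0.405, 0.632 and 1.80 in muscle. BAT was clear of IWAT and liver and overlapped with muscle. Its difference from IWAT, 2.79 ± 0.47 (edgeR, adjusted p = 0.000111), rests on few tags, since the IWAT values lie near the limit set by 3 counts. Mrps18b came next among the differences from IWAT (2.09 ± 0.36, adjusted p = 0.000136), and it too is a low member, with a tag at 2 places. Without the IWAT controls that stood apart the differences were 2.42 for Mrps27 and 1.97 for Mrps18b.

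Mrpl39, a protein specific to mitochondrial ribosomes, separated BAT most from muscle. Its levels were 46.8, 53.1 and 74.8 CPM in BAT, 6.00, 22.0 and 36.8 in IWAT, 13.9, 24.7 and 33.7 in liver and 6.98, 11.1 and 13.6 in muscle. The muscle range lay below those of BAT and liver. The difference between BAT and muscle was 2.20 ± 0.30 (edgeR, adjusted p = 2.79e-06). Mrps22, a small-subunit protein specific to mitochondria, was 1.63 ± 0.38 higher in BAT than in muscle (0.00127) and did not pass the test against liver (0.09 ± 0.37).

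In liver, Mrps6 stood out by its low level. It had 3.66, 9.59 and 16.2 CPM in BAT, 2.88, 6.41 and 9.09 in IWAT, 0.195, 0.465 and 1.42 in liver and 1.17, 4.92 and 11.1 in muscle, so the liver range touched the muscle one alone. The difference between BAT and liver was 3.56 ± 0.53 (edgeR, adjusted p = 4.24e-06), with liver near the limit set by 3 counts. Mrps23 was the next, at 182, 208 and 240 CPM in BAT and 37.0, 38.9 and 43.0 in liver, a difference of 1.95 ± 0.25 (4.52e-07). In IWAT it had 74.3, 109 and 146 and in muscle 84.2, 127 and 158, so the 3 other tissues were all clear of liver. Mrpl42, at 26.6, 43.8 and 56.3 CPM in BAT and 6.98, 9.02 and 10.4 in liver, differed by 1.83 ± 0.32 (3.49e-05).

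A pair of members was called highest in a tissue other than BAT in every comparison with that tissue, 1 of 74 (1.35%) in liver and 1 of 74 in muscle, where the shares of all genes were 14.5% and 11.8%; for IWAT 0 members were (7%). Mrpl52, a mitochondria-specific large-subunit protein, had 236, 338 and 401 CPM in liver, 180, 197 and 219 in BAT, 160, 260 and 324 in IWAT and 61.5, 212 and 241 in muscle. The liver range was clear of BAT and overlapped with IWAT and, just, with muscle. By edgeR it was higher in liver than in BAT (log2 difference -1.14 ± 0.29 for BAT minus liver, adjusted p = 0.00212), than in IWAT (-1.08 ± 0.29) and than in muscle (1.13 ± 0.29 for liver minus muscle). Mrpl33 had 217, 309 and 356 CPM in muscle, 157, 245 and 290 in BAT, 170, 233 and 318 in IWAT and 82.7, 91.5 and 96.9 in liver. Its liver range was clear of all the others, and the remaining 3 overlapped. By edgeR it was higher in muscle than in liver (-1.53 ± 0.23 for liver minus muscle), than in IWAT (-0.89 ± 0.22) and than in BAT (-0.59 ± 0.22, adjusted p = 0.0361), the last of which was lost with scaling by library totals (-0.31, adjusted p = 0.161) and without any of the controls CON3103, CON3106, CON3114 or CON3115.

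Mrpl22, Mrpl23 and Mrps18c were the members with their lowest mean in BAT. Mrpl23, which lies at the exit of the nascent chain, had 0.890, 4.44 and 5.95 CPM in BAT, 0.947, 4.37 and 6.96 in IWAT, 4.53, 6.37 and 7.97 in liver and 3.53, 12.8 and 18.3 in muscle. Muscle was highest, with ranges that overlapped. The difference between BAT and muscle was -1.69 ± 0.39 (edgeR, adjusted p = 0.00101) and that between BAT and liver -1.07 ± 0.38 (0.0222). Mrpl22, near the wall of the exit tunnel, had 2.23, 2.93 and 5.01 CPM in BAT and 3.54, 5.30 and 6.29 in liver (-1.03 ± 0.27, adjusted p = 0.00269). With scaling by library totals neither passed the test against liver (-0.59 for Mrpl23 and -0.56 for Mrpl22). The call of Mrpl23 against liver was also lost by edgeR with upper-quartile scaling (adjusted p = 0.0736) and without CON3107 (0.0688), CON3112 (0.0900) or CON3114 (0.0560). These 3 genes have the multi-place tags printed above.

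Among the other 3 tissues, 5 of 74 members were higher in IWAT than in liver and 27 lower (background 28% and 25.1%; median -0.63), 2 were higher in IWAT than in muscle and 34 lower (31.2% and 24.6%; median -0.73), and 8 were higher in liver than in muscle and 16 lower (29.4% and 30.9%; median -0.15). Without the 2 control IWAT libraries that stood apart, 3 of 75 were higher in IWAT than in liver and 29 lower. The median was then -0.41 (all genes 0.01), and 3741 of 13287 genes were higher and 3686 lower. Against muscle 2 were higher and 38 lower (median -0.65), of all genes 4446 and 3724. On the pair's own libraries without those 2, the median against liver was -0.25. Among all restricted libraries it was 0.07 (all genes 0.07). The order of IWAT and liver depended on the scaling: with library totals alone 23 members were higher in IWAT than in liver and 0 lower, with a median of 0.29, but 49.6% of all genes were then higher too and the median of all genes moved to 0.82. Between IWAT and muscle library totals gave 8 higher and 11 lower, with a median of -0.08, while the median of all genes was 0.73. Relative to the median of all genes, the members lay at -0.64 (IWAT against liver) with TMM scaling and at -0.53 with library totals, at -0.85 and -0.81 for IWAT against muscle and at -0.12 and -0.12 for liver against muscle. For BAT against IWAT these relative values were 1.17 and 1.17, for BAT against liver 0.49 and 0.49 and for BAT against muscle 0.26 and 0.27.

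Genes of the same pathway were set beside the members, from lists drawn up for this purpose. Between BAT and IWAT controls, 68 of 73 respiratory chain and ATP synthase genes were higher in BAT and 0 lower (median 1.82). So were 4 of 6 in the list of mitoribosomal proteins with other symbols, such as Ptcd3 (1.73 ± 0.28). That list, here and below, also counts Oxa1l (1.14 ± 0.17), which is not a ribosomal protein but the insertase that receives nascent chains. Of the factors that assemble the ribosome and mature its RNAs 8 of 23 were higher (Fastkd2 1.58 ± 0.19), of the translation factors 7 of 13 (Guf1 1.91 ± 0.22, Mrrf 1.83 ± 0.25), and of the genes of mitochondrial transcription and RNA stability 14 of 22 (Tfb2m 1.51 ± 0.20), with 0 lower in each. For the ribosomal proteins of the cytosol the count was 2 of 46 higher and 6 lower, with a median of -0.22. Without the 2 IWAT controls that stood apart 68 of 74 respiratory chain genes were higher (median 1.83), 13 of 23 assembly factors, 10 of 13 translation factors, and 17 of 22 genes of transcription and RNA stability.

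The diet comparison within each tissue used the same test and an adjustment over all genes of that tissue. Methionine restriction moved 0 members past the threshold in any of the 4 tissues: 0 of 74 in BAT (background 1.11%), 0 of 72 in IWAT (0.027%), 0 of 73 in liver (2.26%) and 0 of 74 in muscle (0%). Genes left out by the filter were Mrps21 in BAT, Mrps18b, Mrps21 and Mrps27 in IWAT, Mrps6 and Mrps21 in liver and Mrps27 in muscle. At an unadjusted p under 0.05 by edgeR there were 1 member in BAT (of 1466 genes), 8 in IWAT (975), 2 in liver (1594) and 3 in muscle (705), and DESeq2 called 0, 3, 1 and 0. The median log2 fold change over the members was 0.03 in BAT, 0.49 in IWAT, -0.02 in liver and -0.10 in muscle, while over all genes it was 0.00, -0.02, 0.01 and -0.04. The members' values thus lay to the higher side in IWAT and around 0 elsewhere. A typical member had an SE of 0.22 in BAT, 0.43 in IWAT, 0.14 in liver and 0.48 in muscle (medians).

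**Figure D4:**
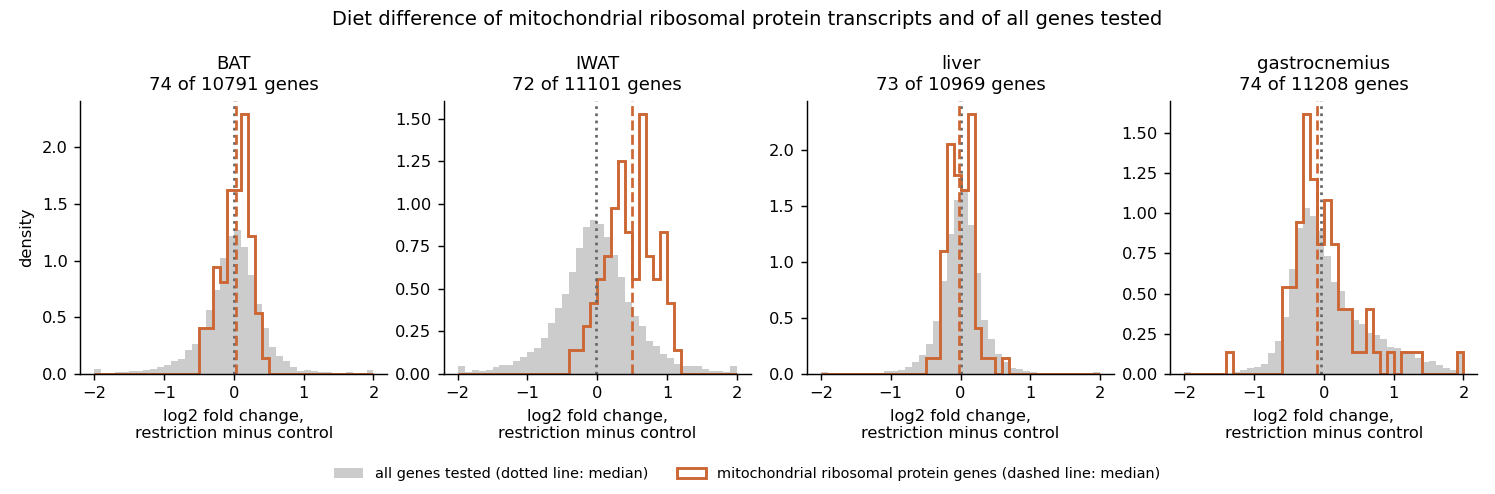
Density of the log2 fold change, methionine restriction against control (positive is higher under restriction), in each tissue. Grey bars are all genes tested and the outline is the members, with values beyond the axis drawn in the end bins. The dotted line is the median of all genes and the dashed line that of the members. In IWAT 65 of 72 members lie above 0. In BAT, liver and muscle the members lie on both sides of it (43 of 74, 35 of 73 and 31 of 74 above). No member passed an adjusted p of 0.05.

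In IWAT, 65 of 72 members had a higher fitted level under restriction, and the 8 members at an unadjusted p under 0.05 were all higher (Mrpl2, Mrpl15, Mrpl16, Mrpl35, Mrpl38, Mrps2, Mrps10 and Mrps23). The median was 0.50 for the large subunit (45 of 49 above 0) and 0.36 for the small subunit (20 of 23). It ran from 0.36 to 0.57 over all the alternatives. The summed level was 4168 to 5424 CPM in control and 5673 to 6511 in restricted IWAT (medians 5008 and 6030), so the groups did not overlap by library totals. They overlapped after TMM scaling, from 3856 to 5707 in controls and from 5156 to 8913 under restriction, where the highest values of the 2 groups were those of CON3106 and MR3116. Without the 3 libraries that stood apart the sums were 4962 to 5424 CPM and 5896 to 6511 by library totals, and 3856 to 5181 and 5156 to 6962 with TMM scaling. By library totals 4 members (Mrpl15, Mrpl16, Mrpl19 and Mrps23) were higher in every restricted library than in every control, against 0.82% of all genes, and with TMM scaling 1 was (Mrpl15; 0.766%).

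Mrpl16, a protein near the catalytic centre, had a lowest, median and highest level of 103, 111 and 151 CPM in control IWAT and 164, 172 and 210 in restricted IWAT. The groups did not overlap by library totals, but they overlapped with TMM scaling within the tissue. The fold change of Mrpl16 was 0.71 ± 0.23 (edgeR, adjusted p = 0.294). Without the libraries that stood apart it was 0.69 (0.157). In the other tissues its medians were 215 and 203 CPM in BAT, 109 and 110 in liver and 120 and 133 in muscle (control and restricted), with overlapping ranges.

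Mrpl15, a large-subunit protein with a bacterial counterpart, had 137, 189 and 221 CPM in control IWAT and 255, 275 and 290 in restricted IWAT. The spread among restricted mice was small and the 2 groups were apart on both scales. Its fold change was 0.68 ± 0.22 (edgeR, adjusted p = 0.302), or 0.61 without the libraries that stood apart (0.177). Mrps10, a small-subunit protein with a tag at 2 places, had 23.98, 66.0 and 83.9 CPM in controls and 41.5, 105 and 134 under restriction. Its groups overlapped, since MR3116 had the lowest value of the restricted ones. The fold change was 0.74 ± 0.28 (edgeR, adjusted p = 0.396), and 0.74 without the libraries that stood apart (0.176).

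Mrps2, the gene that marked BAT above, had 6.47, 23.96 and 35.9 CPM in control IWAT and 9.50, 51.5 and 58.0 under restriction. The low values of both groups were those of the libraries that stood apart: 6.47 and 11.0 in CON3106 and CON3115, and 9.50 in MR3116, while the other restricted libraries had 43.0 to 58.0. The fold change was 1.07 ± 0.40 (edgeR, adjusted p = 0.396), or 0.90 without those libraries (0.128). On the lower side the smallest p-values were those of Mrpl41 (-0.24 ± 0.32), Mrps34 (-0.39 ± 0.88), Mrpl53 (-0.15 ± 0.37) and Mrpl33 (-0.06 ± 0.25), all with an edgeR adjusted p of 1.

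Whether a member passed in IWAT depended on the model. DESeq2 called 3 of 70 members higher, Mrpl15 (adjusted p = 0.0246), Mrpl16 (0.0389) and Mrpl2 (0.0475), where 1.51% of all genes were higher. The edgeR fit of all 47 libraries together, which takes 1 estimate of spread from the 4 tissues, called 5 of 75 (background 1.96%): Mrpl16 (0.74 ± 0.18, adjusted p = 0.0123), Mrpl15 (0.69 ± 0.18, 0.0229), Mrps10 (0.77 ± 0.22, 0.0412), Mrps2 (1.11 ± 0.32, 0.0413) and Mrps27 (1.71 ± 0.50, 0.0469). Mrps27 was at 0.451 CPM (median) in controls and 1.17 under restriction, close to the limit set by 3 counts. Without the 3 libraries that stood apart the tissue's own fit called 0 of 72, with 64 of 72 above 0, a median of 0.36 and 23 members at an unadjusted p under 0.05 (1826 genes). Without them DESeq2 called 10 of 72 higher (background 2.97%) and the fit of the remaining libraries of all tissues 7 of 75 (3.01%), among both of which were Mrpl15, Mrpl16, Mrpl34, Mrpl46, Mrps2 and Mrps23; these fits were added after seeing the data.

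**Figure D5:**
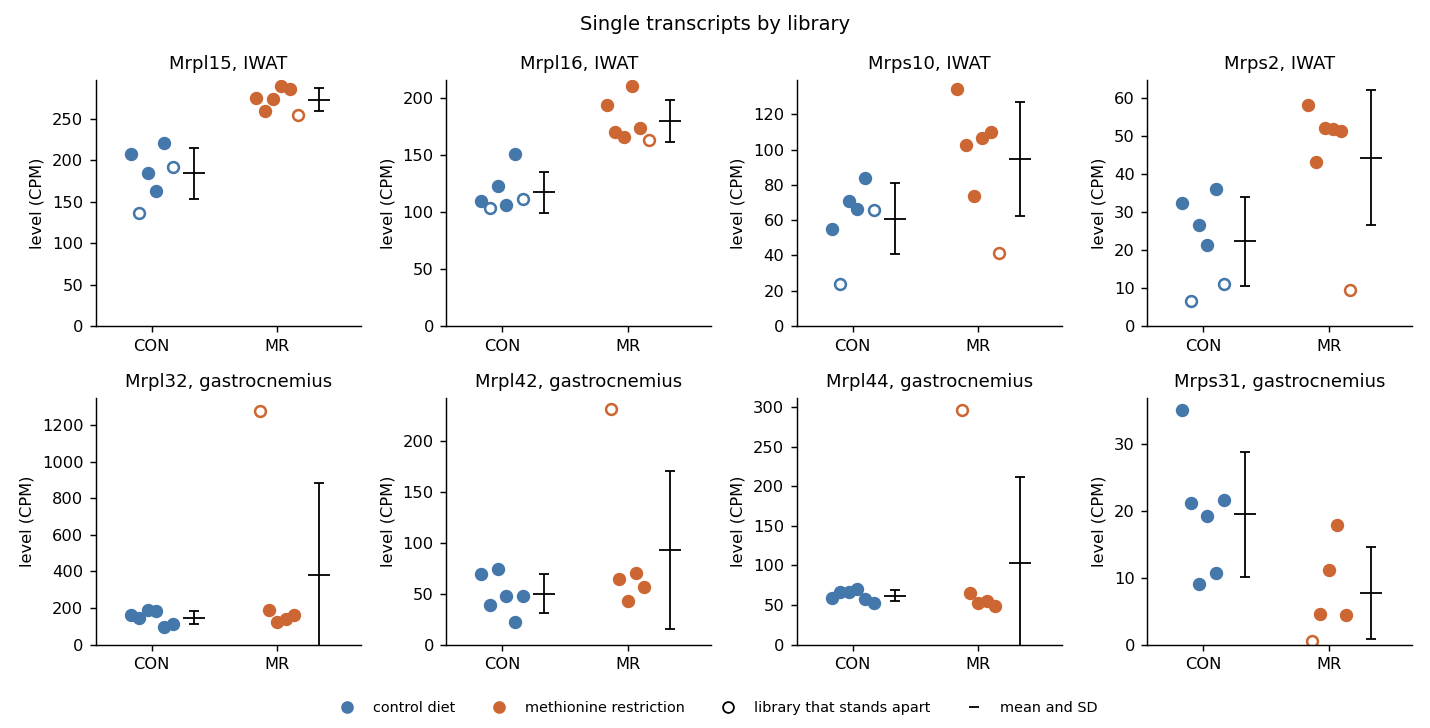
Level (CPM) of 8 members in each library by diet, with mean and SD; the top row shows IWAT and the bottom row gastrocnemius, and open circles are libraries that stood apart. Mrpl15 and Mrpl16 are separated by diet in IWAT on this scale of library totals, and with TMM scaling Mrpl15 alone was. The low points of Mrps2 are the open circles, and in muscle the high values of Mrpl32 (1278 CPM), Mrpl42 and Mrpl44 belong to 1 open circle, MR3101.

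The brown adipocyte markers were higher in restricted IWAT without overlap, while the summed levels of the adipocyte, lymphocyte and hepatocyte markers overlapped between the diets. The brown adipocyte markers (Ucp1, Cidea, Ppargc1a, Cox8b and Elovl3, all 5 with tags in every library of both groups) summed to between 53.4 and 704 CPM in control IWAT (median 160) and to between 802 and 2842 under restriction (median 2194), without overlap. Without the libraries that stood apart the ranges were 53.4 to 704 and 1625 to 2842 CPM. Their fitted values were all above 0, with a median of 2.23 and 5 of 5 at an unadjusted p under 0.05, and 0 passed the adjusted threshold by edgeR in the tissue's own fit (5 of 5 did in the fit of all libraries). The adipocyte markers summed to 35444 to 88865 CPM in controls and 33646 to 64180 under restriction, the lymphocyte markers (8 genes) to 13.1 to 2845 and 10.1 to 1256, and the hepatocyte markers to 355 to 11052 and 223 to 7877. In the fit without the libraries that stood apart, 0 of 5 skeletal muscle markers had a value above 0, with a median of -2.69, and 0 were called. Of these 5 markers, 2 had tags in every restricted IWAT library. The macrophage markers had a median of -0.26 (2 of 4 above 0) and the erythroid ones of -0.26 (1 of 3). The part of all these cells in the members' values was not tested.

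The related genes lay to the same side in IWAT. The respiratory chain and ATP synthase genes, into which the products of the ribosome are built, had a median of 0.91 with 67 of 71 above 0 and 30 higher at an unadjusted p under 0.05, and their summed level was 33773 to 56381 CPM in controls and 62621 to 85931 under restriction. The medians were 0.56 for mitoribosomal proteins with other symbols (6 of 6 above 0), 0.49 for assembly factors (21 of 23), 0.49 for translation factors (11 of 13), 0.49 for mitochondrial transcription and RNA stability (20 of 21), 0.73 for import and chaperones (17 of 17) and 0.78 for the regulators of nuclear genes for mitochondria (7 of 9). The cytosolic ribosomal proteins had a median of 0.07 (28 of 43 above 0). Without the libraries that stood apart the medians were 0.77 for the respiratory chain, 0.38 for proteins with other symbols, 0.27 for assembly, 0.54 for translation factors, 0.51 for transcription and RNA stability, 0.62 for import, 0.70 for the regulators and 0.04 for the cytosolic ribosome. By edgeR, 0 genes of these lists passed the threshold in IWAT. The smallest p-values belonged to Gabpa, the factor whose core is CCGGAAG (0.78 ± 0.19, adjusted p = 0.158), Ppargc1a, a coactivator of mitochondrial genes (1.25 ± 0.34, 0.177), Tfb2m (0.81, 0.188), Ptcd3 (0.91 ± 0.26, 0.218), Grpel1 (0.76, 0.221) and Esrra (1.44 ± 0.44, 0.246).

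The comparison of the 2 kinds of fat was repeated on the restricted diet. Among restricted libraries 13 of 74 members were higher in BAT than in IWAT and 0 lower (background 6.6%), with a median of 0.48, against 52 and a median of 1.14 among controls. Without the libraries that stood apart, chosen after seeing the data, the counts were 33 of 74 higher (background 16.9%, median 0.52) on the restricted diet and, as given above, 51 of 75 among controls. Tested as the difference between the diet effects of the 2 tissues in the fit of all 47 libraries, 0 of 75 members passed, and the median of that difference was -0.52 for the members and -0.09 for all genes (-0.37 and -0.04 without the libraries that stood apart, where 0 of 75 passed too).

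In BAT the summed level was 6621 to 7980 CPM in controls and 5830 to 8212 under restriction, and the groups overlapped. The member with the smallest p was Mrps15, a small-subunit protein with a bacterial counterpart. It had 172, 208 and 219 CPM in controls and 65.1, 160 and 172 under restriction, so the groups met at 172 CPM, and its fold change was -0.43 ± 0.20 (edgeR, adjusted p = 0.360). Mrpl18, whose bacterial counterpart binds the 5S ribosomal RNA, had 212, 265 and 283 CPM in controls and 206, 297 and 482 under restriction (0.37 ± 0.19, adjusted p = 0.416). Mrpl30, the most abundant member, had 335, 540 and 1063 in controls and 516, 766 and 930 under restriction (0.44 ± 0.28, 0.516), where the value of 1063 was that of CON3115. Mrpl46 (0.32 ± 0.19), Mrpl44 (0.23 ± 0.14), Mrpl42 (-0.39 ± 0.23), Mrpl50 (-0.33 ± 0.22) and Mrps28 (-0.42 ± 0.28) had adjusted p-values of 0.484 to 0.559 by edgeR. Of the lists, the assembly factors had a median of 0.17 (18 of 23 above 0) and the respiratory chain genes 0.01 (39 of 73), and Ppargc1a had 0.77 ± 0.18 (adjusted p = 0.0512).

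In liver the summed level was 3362 to 3974 CPM in controls and 3688 to 4353 under restriction; with TMM scaling it was 3826 to 4129 and 3685 to 3894. The order of the groups thus changed with the scaling, as did the median, from -0.02 to 0.16 with library totals, where the median of all genes moved from 0.01 to 0.19. Relative to that shift the members stayed at -0.03 with both. Mrpl48, a mitochondria-specific protein of the large subunit whose tag is shared with another gene's transcript, had 82.9, 89.4 and 104 CPM in controls and 82.8, 84.0 and 96.0 under restriction. The groups overlapped, and its fold change was -0.26 ± 0.09 (edgeR, adjusted p = 0.146); DESeq2 called it lower (-0.27, adjusted p = 0.0258), 1 of 73 members, where 2.65% of genes were lower. Mrpl2, close to the catalytic centre, had 125, 133 and 152 CPM in controls and 159, 177 and 183 under restriction, without overlap by library totals, and 0.17 ± 0.09 with TMM scaling (edgeR, adjusted p = 0.385); with library totals it was called (0.35, 0.0327). By library totals 3 of 73 members were higher in every restricted liver library than in every control, against 4.36% of all genes. The call was 1 of 73 members, where 548 of 10969 genes were called higher. Mrpl44 (-0.26 ± 0.12), Mrpl4 (-0.36 ± 0.18) and Mrpl16 (-0.16 ± 0.08) followed on the lower side, Mrps27 (0.65 ± 0.32), Mrps11 (0.26 ± 0.14) and Mrpl11 (0.22 ± 0.13) on the higher side, and with library totals Mrpl16 came to 0.02. Of the lists, Hsd17b10, a subunit of mitochondrial RNase P, fell by edgeR (-0.70 ± 0.11, adjusted p = 0.00226).

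In muscle the largest positive values, those of Mrpl32, Mrpl42, Mrpl44 and Mrpl52, rested on 1 library, MR3101. Mrpl32, which is cut to its mature form by an inner-membrane protease, had 96.2, 152 and 187 CPM in controls; the restricted mice had 126, 141, 162, 189 and 1278 CPM, the last being MR3101. The other 4 restricted libraries lay within the control range or just above it. The fold change was 1.94 ± 0.72 (edgeR, adjusted p = 0.768), and 0.09 without that library. Mrpl42 had 22.2, 47.8 and 74.1 CPM in controls and 43.0, 56.2, 64.3, 70.4 and 231 under restriction (1.36 ± 0.56, adjusted p = 0.768; 0.24 without MR3101). Mrpl44 had 52.4, 62.1 and 70.8 CPM in controls and 48.5, 52.6, 54.9, 65.6 and 296 under restriction (1.23 ± 0.60; -0.15 without MR3101), and Mrpl52 61.5, 212 and 241 against 65.4, 202, 218, 309 and 605 (1.11 ± 0.58; 0.22).

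On the lower side in muscle, Mrps31 had 9.10, 20.2 and 35.1 CPM in controls and 0.481, 4.37, 4.56, 11.2 and 17.9 under restriction. Its low value of 0.481 was again MR3101, and 3 of the 5 restricted libraries were below all controls. The fold change was -1.36 ± 0.59 (edgeR, adjusted p = 0.768), and -1.07 without that library. Mrps18b (-0.59 ± 0.42; -0.42 without MR3101), Mrpl33 (-0.46 ± 0.34; -0.26) and Mrpl21 (-0.36 ± 0.35; -0.13) followed. Without MR3101 the median over the members was 0.01 (all genes 0.02), with 40 of 74 above 0.

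The diet effect was then compared between tissues for each gene. Over the 4 tissues, 0 of 75 members passed (edgeR, background 0.524%), with 10 at an unadjusted p under 0.05 (1885 genes), Mrpl16 having the smallest (adjusted p = 0.151). With the animal as a block 0 passed as well. Without the 4 libraries that stood apart 1 of 75 passed, Mrpl16 (adjusted p = 0.0445; background 1.88%), whose diet effect was 0.93 larger in IWAT than in liver (0.0163), and a likelihood ratio test in DESeq2 also called Mrpl16 alone (0.0280; background 3.64%). The median difference in diet effect was 0.56 for IWAT against liver (all genes 0.02), and 0.58 for IWAT against muscle (-0.01), with 0 members called in either. These medians were 0.49 and 0.43 without the libraries that stood apart. These comparisons share the IWAT libraries.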

How the data were processed

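Total RNA (7 to 12 ng per library) was made into SOLiD SAGE 3′ tag libraries, and tags uniquely mapped to mouse RefSeq genes were counted, per the labels' protocols. The authors deposited raw tag counts per gene symbol and a normalized signal, the counts divided by a DESeq size factor per library; the submitters' processing notes name mm10, GRCm38.p1 and DESeq. The aligner and the counter were not given in the sources used here. Tests used the deposited counts in edgeR 4.0.16 (limma 3.58.1, R 4.3.3): TMM scaling, filterByExpr with a minimum count of 10, quasi-likelihood F tests and Benjamini-Hochberg adjustment over all genes, with a threshold of 0.05. Diet was fitted per tissue, tissues in the 24 control libraries, and the interaction in all 47 libraries over 26583 shared symbols (25 symbols of the muscle table had turned into dates). For the SE, the size of the log2 fold change was divided by √F. Alternatives were DESeq2 1.42.0, other scalings and filters, log2 of the deposited signal plus 1 or 10 in limma, each library left out, and a block for the animal. Scripts were tested on simulated data.

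The members and lists were chosen with earlier results of these data known. Named were, per tissue, the members past the threshold or else the 4 with the smallest p in each direction, the 5 highest and lowest in level, the 4 largest differences per tissue pair with BAT, members highest in a tissue other than BAT, and the paralogs and subunits listed above; from the lists, up to 4 genes per tissue. The 11 members called highest in BAT, and the genes in the paragraphs on tags, promoters and non-overlap, were chosen after their values were seen. Tags were predicted from GENCODE vM1 transcripts and located in NCBIM37; gene spans and promoters are RefSeq's for GRCm38.p6. The same animal gave up to 4 libraries, and the correlation of same-animal deviations from the group means averaged -0.0759 to 0.0627 over the 6 tissue pairs.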

Additional observations from a re-analysis of the deposited data

Results flagged for a closer look

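Each of the 96 groups of 4 to 10 libraries behind the named genes was searched for a library far from the rest of its group, which chance flags in about 1 of 20 groups; 6 were found. CON3115 had 1063 CPM of Mrpl30 in BAT, where the other 5 controls had 335 to 577. MR3116 had 9.50 CPM of Mrps2 in IWAT, where the other 5 had 43.0 to 58.0. The remaining 4 belong to MR3101 in muscle: Mrpl32 at 1278 CPM (others 126 to 189), Mrpl42 at 231 (43.0 to 70.4), Mrpl44 at 296 (48.5 to 65.6) and Mrpl33 at 57.1 (222 to 283). Of these 6 values, 5 come from libraries that stood apart by their rank correlation, and the BAT library of CON3115 did not.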

How the results depend on the processing

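The diet counts were 0 in each tissue under every alternative except in IWAT (higher: DESeq2 3, fit of all libraries 5, and 10 and 7 by these without the libraries that stood apart) and in liver (lower: DESeq2 1; higher: library totals 1). The interaction count, 0, became 1 without the libraries that stood apart and with the likelihood ratio test, and ran from 0 to 1 when single animals were left out (1, Mrpl32, without MR3116, where the contrast of IWAT against muscle also called 7 members instead of 0). That setting kept the muscle library of MR3101, and the 7 members included Mrpl32 (-3.03), Mrpl44 (-1.97) and Mrps31 (2.43). The count over all genes is not set beside these 7, so they are not read as a result about the members. With all the libraries that stood apart left out, this contrast called 0 of 75 members, where 119 of 13751 genes were higher and 12 lower.

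With the replicate block, in which the animal pairs the tissues, 1 member was higher in IWAT than in muscle instead of 2, and no other call count moved by over 1.5 times; with the block 54 members were higher in BAT than in IWAT. Of 12854 genes the block fit called 3556 higher in IWAT than in muscle and 2381 higher in BAT than in IWAT. Library totals gave 34 members higher in BAT than in IWAT, 52 higher and 1 lower in BAT than in liver, 29 and 1 for BAT against muscle, 23 and 0 for IWAT against liver, 8 and 11 for IWAT against muscle and 3 higher in liver than in muscle. Of all 12854 genes library totals called 1343 higher in BAT than in IWAT, 5172 higher and 2015 lower in BAT than in liver. For BAT against muscle these counts were 3676 and 2016, and for IWAT against liver 6370 and 1636. For IWAT against muscle they were 5968 and 1747, and 3194 genes were higher in liver than in muscle. The restricted libraries gave 13 higher in BAT than in IWAT, 1 lower in BAT than in liver, 2 lower in IWAT than in liver, 4 higher and 7 lower for IWAT against muscle and 5 higher in liver than in muscle; they are other animals, and without those that stood apart they gave 33 higher in BAT than in IWAT. The restricted libraries called 836 of 12666 genes higher in BAT than in IWAT (16.9% of genes without those that stood apart). Lower in BAT than in liver were 2811 genes and lower in IWAT than in liver 2448. For IWAT against muscle 2513 were higher and 2024 lower, and 3251 were higher in liver than in muscle. Upper-quartile scaling gave 8 higher in IWAT than in liver and 4 higher in liver than in muscle, DESeq2 4 lower in BAT than in muscle, and no filter 1 higher in IWAT than in muscle. Of 12854 genes, upper-quartile scaling called 4437 and 3371 in these comparisons and DESeq2 3150, and no filter called 4405 of 19232. Without the control libraries that stood apart, 26 were higher and 4 lower for BAT against muscle and 3 higher in IWAT than in liver; refitted on the pair's own libraries, chosen after seeing the data, 27 were higher in BAT than in muscle, 1 higher in IWAT than in muscle and 26 lower in liver than in muscle. Leaving out single controls gave 11 to 22 higher and 1 to 3 lower for BAT against muscle (11 without CON3114; 1 without CON3103, CON3106, CON3114 or CON3115), 3 to 5 higher in IWAT than in liver (3 without CON3115), 1 to 2 higher in IWAT than in muscle (1 without CON3103, CON3106, CON3107 or CON3115) and 3 to 7 higher in liver than in muscle (3 without CON3114, 5 without CON3107 or CON3115). Without the control libraries that stood apart, 3846 of 13287 genes were higher and 3636 lower in BAT than in muscle, and 3741 were higher in IWAT than in liver. Without CON3114, 2546 of 12901 genes were higher and 2342 lower in BAT than in muscle, and 3454 were higher in liver than in muscle. Without CON3103, 2547 of 12844 genes were higher and 2314 lower in BAT than in muscle, and without CON3106 2871 and 2954 of 12877. Higher in IWAT than in muscle were 3511 genes without CON3103, 3897 without CON3106 and 3530 of 12845 without CON3107. In the last setting 3584 genes were higher in liver than in muscle. Counts over all genes are not set beside the remaining single omissions or the refits on a pair's own libraries. The member counts of those settings are not read as a result about the members. The cause of these changes was not tested.

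Uncalled values that changed sign were Mrpl53 in IWAT with the deposited signal (0.018 with a pseudocount of 1 and 0.0051 with 10), Mrps34 in IWAT when single libraries were left out (-0.64 to 0.044, above 0 without CON3103), Mrpl33 in IWAT likewise (-0.20 to 0.070, above 0 without MR3113 or CON3115) and without the libraries that stood apart (0.014; DESeq2 0.040, fit of all libraries 0.076, where Mrpl41 came to 0.0039), Mrpl16 in liver with library totals (0.022), and Mrpl44 in muscle without MR3101 (-0.15). Members under 1 CPM rest on few tags, and no member's protein was measured.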

Other observations

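The differences of the 4 libraries that stood apart from their groups were correlated over the members, and the shares of members beyond the other libraries are set beside those of all genes. Each was compared with the median of the other libraries of its tissue and diet, as log2 of CPM plus 0.5. Of 75 members, 52 were below all the other libraries in CON3106, 41 in CON3115 and 50 in MR3116 (all IWAT) and 53 in MR3101 (muscle), and 9, 16, 16 and 11 were above all of them. Of all genes past the filter 57.7%, 46.1%, 60.1% and 63.3% were below and 21.5%, 23.4%, 22.2% and 22.1% above. Spearman's rho between the differences of a pair of these libraries ran from 0.8537 to 0.9525 over the 75 genes and from 0.7933 to 0.9379 over 10199 genes, although they come from 2 tissues, 2 diets and 4 mice; the 2 IWAT control libraries share their reference libraries.

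Below -3 were 21, 9, 24 and 30 members in CON3106, CON3115, MR3116 and MR3101, and 9 of 75 in all 4, where 9.35% of 10199 genes were: Mrpl4, Mrpl12, Mrpl20, Mrpl34, Mrpl45, Mrps5, Mrps16, Mrps18a and Mrps30. Above 1 in all 4 was 0, with 4, 0, 6 and 7 above 1 in each. Of all genes, in the same order of libraries, 20.1%, 12.1%, 22.8% and 25.2% were below -3. Above 1 were 13.3%, 7.96%, 12.1% and 15.9% of all genes. Mrpl12, the stalk protein, had 2.21 CPM in CON3106 and 9.02 in CON3115, where the other IWAT controls had 122 to 169. It had 2.58 CPM in MR3116 (others 179 to 212) and 0.601 in the muscle of MR3101 (others 41.6 to 195). Mrps16, which has 1 NlaIII site, had 0 CPM in the muscle of MR3101 (others 31.2 to 61.2) and 0.483 in MR3116 (others 63.8 to 88.0). Mrpl32 went the other way, with 552 CPM in CON3106 (others 111 to 179), 713 in MR3116 (others 139 to 170) and 1278 in MR3101. Across the 75 genes the difference had a Spearman's rho with the distance from the predicted tag to the transcript's end of -0.4512, -0.4070, -0.4429 and -0.4976 for CON3106, CON3115, MR3116 and MR3101, and with the GC content of the tag of -0.3866, -0.3276, -0.3962 and -0.4501. These are descriptions over genes that share a library, and what sets these libraries apart was not tested.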
